A study of Mus musculus with 19 samples.

Results

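The brain library is 1 RNA-seq library of total RNA from brain, and it was set against the libraries of 12 other tissues of the same 13-tissue table. Values are deposited FPKM, that is reads per kilobase of gene length and per 1000000 reads assigned to genes. Of 54532 gene rows, 15613 reached 1 FPKM in brain, and 26586 did so in any of the 13 tissues. The members described here are those 15613 genes, each with the ratio of brain to the highest other tissue after 0.1 FPKM was added to both. A gene was called brain-enriched at 4-fold or more in that ratio, which held for 681 genes.

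The study profiled tissues of C57BL/6J mice to find genes of kidney. All mice are labelled as 8 weeks old, male and fed chow, with no other treatment and no genetic alteration stated. The 12 other tissues were aorta, colon, eye, heart, kidney, liver, skeletal muscle, parathyroid, stomach, testis, thymus and white adipose tissue (WAT), and 6 further tissues (bone, brown adipose tissue, intestine, spleen, lung and skin) were deposited as counts. Each tissue has 1 library, the labels do not say how many mice went into it, and no difference between tissues has a replicate check.

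Brain tissue holds neurons, which signal through synapses, and glia, of which oligodendrocytes wrap axons in myelin and astrocytes clear transmitter and supply metabolites. The regions of the brain keep their own transcription factors into adult life: Emx1, Emx2 and the Dlx genes belong to the telencephalon, the front part with cortex and striatum, while En2 and the Zic genes mark cerebellum and Hox genes mark hindbrain and spinal cord. Cerebellar granule cells, the most numerous neurons of the mouse brain, are known for the GABA-A receptor subunit Gabra6. The repressor REST, which binds the RE1 element, keeps neuronal genes silent in non-neural cells.

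Promoter stretches of 3 genes are shown because the genes carry the findings below: Gabra6 has the largest ratio of brain to other tissues among protein-coding genes at 10 FPKM or more, Grin2c is the granule-cell NMDA receptor subunit, and Fbll1, a relative of the nucleolar protein fibrillarin, is the enriched gene whose stretch holds both cores of an RE1 element. Each stretch covers the 250 bases before the start of the gene in RefSeq (GRCm38.p6), on the minus strand, 5' to 3'. Capitals in the Gabra6 stretch (chr11:42321073-42321322) mark the half-site TGCCAA, the reverse complement of TTGGCA, which nuclear factor I (NFI) proteins are known to bind. The Grin2c stretch (chr11:115267244-115267493) held neither form. Capitals in the Fbll1 stretch (chr11:35798885-35799134) mark the RE1 core letters CAGCACC and GGACAGC, found here as reverse complements.
Gabra6: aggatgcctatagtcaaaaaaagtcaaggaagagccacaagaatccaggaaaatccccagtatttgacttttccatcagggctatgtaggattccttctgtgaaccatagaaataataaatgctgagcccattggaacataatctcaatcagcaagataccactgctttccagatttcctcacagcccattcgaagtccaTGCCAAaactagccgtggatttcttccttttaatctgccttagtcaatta
Grin2c: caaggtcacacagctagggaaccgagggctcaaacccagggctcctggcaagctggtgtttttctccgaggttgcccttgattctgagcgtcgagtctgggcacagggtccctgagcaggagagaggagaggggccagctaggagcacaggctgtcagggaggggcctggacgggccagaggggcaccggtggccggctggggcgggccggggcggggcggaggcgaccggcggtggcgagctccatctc
Fbll1: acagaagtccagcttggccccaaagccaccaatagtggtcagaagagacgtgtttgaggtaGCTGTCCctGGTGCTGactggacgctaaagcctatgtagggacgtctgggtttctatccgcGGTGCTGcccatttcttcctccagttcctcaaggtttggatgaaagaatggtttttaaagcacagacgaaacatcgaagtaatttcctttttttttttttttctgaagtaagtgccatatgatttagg

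The NFI half-site began 50 bases before the start of Gabra6. In the Fbll1 stretch GCTGTCC began at -189 and GGTGCTG at -180, with 2 bases between them, and a further GGTGCTG lay at -128. On either strand, the NFI half-site occurred in 12.5% of the 27025 RefSeq stretches of this length in 9.75% of those of the 10472 protein-coding genes that reached 1 FPKM in brain, and in 13.8% of those of enriched protein-coding genes, of which 363 of 497 had an entry. Of 11 granule-cell genes with an entry, 4 held it. Both RE1 cores at this spacing occurred in 5 of the 27025 stretches, in 4 of the 10472 and in 1 of the 363, which is Fbll1. The single cores CAGCACC and GGACAGC, which lie within the paired element, occurred in 5.23% and 5.51% of the enriched stretches, in 6.05% and 6.31% of those of the 10472 genes and in 5.70% and 5.29% of all stretches. The core TGACGT of the cAMP response element occurred in 7.44% of the enriched stretches, in 10.1% of those of the 10472 genes and in 6.56% of all. The E-box CAGATG, which NeuroD factors are known to bind, occurred in 12.1%, 9.70% and 14.5% of the same 3 sets. A match of letters shows no binding, and no share was tested. Fbll1 itself had 17.5 FPKM in brain, against 4.03 FPKM in eye, its highest other tissue.

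The 5 genes chosen as markers of brain were all high in the brain library. Snap25, a SNARE protein of transmitter release (ENSMUSG00000027273, chr2:136713453-136782428), had 956.5 FPKM in brain, while the 12 other tissues ran from 0 in kidney through a median of 1.01 to 193 FPKM in eye. Mbp, a structural protein of myelin (chr18:82475146-82585637), had 4058 FPKM in brain against a lowest value of 1.87 in testis, a median of 15.4 and a highest value of 226 FPKM in eye. Brain lay above every other tissue for both genes. Slc1a2, the main glutamate transporter of astrocytes, had 524 FPKM in brain against 0.17 in skeletal muscle, a median of 1.91 and 88.0 FPKM in liver. Gfap, an intermediate filament of astrocytes, had 221 FPKM in brain against 0.0313 in skeletal muscle, a median of 1.06 and 78.2 FPKM in eye. Gria2, an AMPA-type glutamate receptor subunit, had 61.1 FPKM in brain against 0 in heart, a median of 0.143 and 18.5 FPKM in eye. Brain was again the highest tissue for each of the 3. The ratio to the highest other tissue was 17.9-fold for Mbp (95% interval 17.5 to 18.4), 5.95-fold for Slc1a2, 4.96-fold for Snap25, 3.30-fold for Gria2 and 2.83-fold for Gfap, so the last pair did not reach 4-fold. Ratios given as folds are of FPKM with nothing added, with 95% limits from the exact binomial method of Clopper and Pearson on reads recovered from the FPKM, for counting error only. In bulk tissue, more cells of a type and more RNA per cell cannot be told apart.

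The brain library held 16960248 assigned reads, within the range of 11135276 (colon) to 17263334 (parathyroid), the 6 further libraries held 14949361 to 16683614, and a floor of 3 reads is 0.177 reads per 1000000 in it. Its transcripts of sex-linked genes matched the male label, with 1 read of Xist and 85.5 FPKM summed over Y-linked genes. Those of kidney and eye did not match the male label, and aorta and parathyroid held both kinds. Eye matters most here, because 433 of the 681 enriched genes (63.6%) had their next highest level in it. Without eye 1135 genes were called, and without both kidney and eye 1171.

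The 681 enriched genes are 2.56% of the genes reaching 1 FPKM somewhere and 4.36% of those at 1 FPKM or more in brain, and only testis, with 4467, had more by the same rule. They took 11.4% of the brain reads. Protein-coding genes made up 497 of them, 158 were predicted gene models, 140 had 100 FPKM or more, and 101 were at least 16-fold above the highest other tissue. For 197 genes the lower end of the counting interval lay under 4-fold, and for 52 the 12 other tissues were all at 0. Of the genes reaching 1 FPKM somewhere, 11.9% had their highest value in brain.

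**Figure D1:**
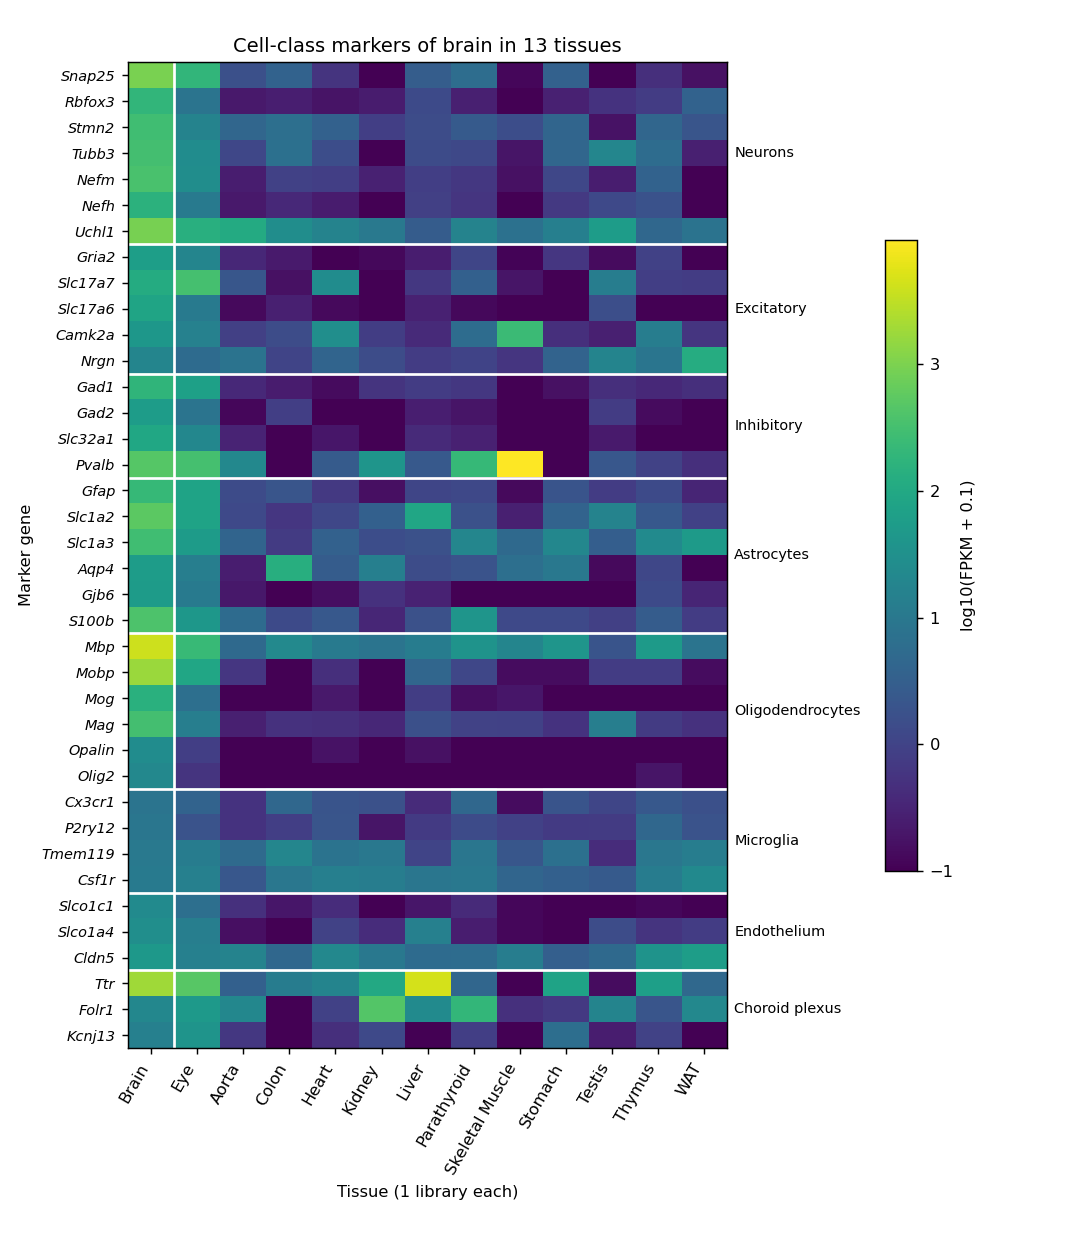
Expression of selected markers of brain cell classes (rows) in 13 tissues (columns, 1 library each), as log10 of FPKM plus 0.1, with brain in the left column and eye beside it. Brain is brightest for neuronal and oligodendrocyte genes such as Snap25 (956.5 FPKM) and Mbp (4058 FPKM), eye is next for most of them, and markers of microglia and endothelium are at similar levels in several tissues.

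Genes known for the cerebellum gave several of the largest ratios. Gabra6 (ENSMUSG00000020428, chr11:42306437-42321072) had 100 FPKM in brain from 3654 reads, against 0 in aorta, a median of 0 and 0.478 FPKM in liver, a 209-fold ratio (129 to 367). Cbln3, a secreted partner of the synapse organiser Cbln1, had 164 FPKM in brain, against 0 in parathyroid, a median of 0.178 and 1.54 FPKM in colon, which is 107-fold (81.8 to 142). Grin2c (chr11:115249169-115267243) had 57.6 FPKM in brain against 0 in colon, a median of 0.267 and 0.961 FPKM in heart, or 59.9-fold (46.6 to 78.3). The ratio of Grin2c was 24.7 (21.2 to 28.9) against spleen, one of the 6 further tissues, at 2.33 FPKM. Brain was far above all 12 other tissues for these 3 genes. Grm4, the metabotropic glutamate receptor of granule-cell terminals, was 37.2-fold above eye at 95.8 FPKM. En2, a homeobox gene of midbrain and cerebellum, had 22.3 FPKM in brain against 0.568 FPKM in testis. Of 12 cerebellar marker genes, all at 1 FPKM or more in brain, 7 were enriched and 10 had their highest value in brain. The enriched share was 4.36% over all genes at 1 FPKM or more in brain and 2.56% over those reaching it somewhere. The median log2 ratio of the 12 was 3.25, where the medians over the same 2 sets of genes were -1.15 and -2.51. The list was chosen with earlier results of these data known, so its counts are a description.

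Both main neuron types of the cerebellum were represented, in lists drawn up after values had been seen, so that these counts only describe the library. Of 16 genes of granule cells 10 were enriched, among them Zic1 at 141 FPKM against 8.73 FPKM in eye, Zic2 at 107 FPKM against 8.65 FPKM in eye, and Gabrd, a GABA-A subunit outside synapses, at 55.0 FPKM against 4.60 FPKM in eye. Zic1 and Zic4 overlap on opposite strands, and since strandedness is not given in the sources used here, their reads cannot be told apart where they overlap. Of 15 genes of Purkinje cells 10 were enriched. Slc1a6, a glutamate transporter of Purkinje cells, had 56.3 FPKM in brain against 1.76 FPKM in eye, a 32.1-fold ratio (23.3 to 45.3). Cbln1, the synapse organiser that granule cells release onto Purkinje cells, had 189 FPKM in brain against 7.89 FPKM in eye. Car8, a carbonic anhydrase relative, had 151 FPKM against 26.8 FPKM in liver. Pcp2 reached 235 FPKM in brain against 78.2 FPKM in eye, or 3.0-fold, and Calb1, a calcium buffer, was higher in kidney (350 FPKM) than in brain (232 FPKM). Of 8 genes listed for Bergmann glia, the radial glia that accompany Purkinje cells, 6 were highest in brain and 5 were enriched. The receptor Gpr37l1 led them, at 156 FPKM against 3.84 FPKM in eye. Slc1a3, another of the 5, is also counted with the astrocyte genes. Sept4 (409 FPKM in brain) lost the call against lung (177 FPKM), which left 4 with the 6 further tissues added. Whether Bergmann glia or other astrocytes held these transcripts was not tested.

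Genes of the brainstem were present as well. Tph2, the enzyme of serotonin synthesis in the raphe nuclei, had 35.2 FPKM in brain against 1.81 FPKM in eye (19.5-fold, 14.4 to 27). Slc6a5, the transporter of glycinergic neurons, had 38.7 FPKM against 2.51 FPKM in eye, and the glycine receptor subunit Glra1 had 13 FPKM against 0.955 FPKM in eye. All 3 passed 4-fold. Slc17a6, the vesicular glutamate transporter of brainstem and thalamus, had 82.6 FPKM against 10.6 FPKM in eye. Dbh, the noradrenaline-making enzyme, was not set apart, at 7.83 FPKM in brain and 6.66 FPKM in heart. Of 14 genes of brainstem neurons, a list also drawn up after values had been seen, 6 were enriched. Of the 8 genes first listed for hindbrain and spinal cord, Slc6a5 and 7 Hox genes, 1 was enriched, Slc6a5, and the median log2 ratio was -1.04.

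Genes that define the telencephalon were at or near 0. Emx1, a homeobox gene of cortex, had 0.251 FPKM in brain from 6 reads, against 0 in aorta, a median of 0 and 39.4 FPKM in kidney. Emx2 had 0.144 FPKM in brain from 4 reads. Kidney, and not brain, was the highest tissue for Emx1. Tbr1 had 0.437 FPKM in brain and 0.954 FPKM in eye, and Fezf2 had 1 read in brain. Of Dlx1, Dlx2, Dlx5 and Dlx6, factors of forebrain inhibitory neurons, Dlx1 had 2 reads, Dlx5 had 1, and Dlx2 and Dlx6 had 0, which at this depth allows up to 0.177 reads per 1000000. Over 20 such factors, listed after values had been seen, 3 reached 1 FPKM in brain, namely Neurod6 (3.07 FPKM), Lhx2 (2.04 FPKM) and Bcl11b (1.48 FPKM), and the median log2 ratio was -4.98. Summed over the 20, brain had 9.16 FPKM, against a range from 2.58 FPKM in skeletal muscle to 203 FPKM in parathyroid, where Nkx2-1 alone gave 194 FPKM. The 20 factors of midbrain and hindbrain drawn up beside them summed to 388 FPKM in brain, against 3.72 FPKM in liver to 107 FPKM in eye. Most of that brain sum lay in Zic1 (141 FPKM) and Zic2 (107 FPKM). The median level in brain was 5.81 FPKM, against 0.164 FPKM for the telencephalic factors, and 19 of the 20 reached 1 FPKM. The median log2 ratio of the midbrain and hindbrain factors was 0.01, and it was -0.69 when libraries were scaled by size factors.

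**Figure D2:**
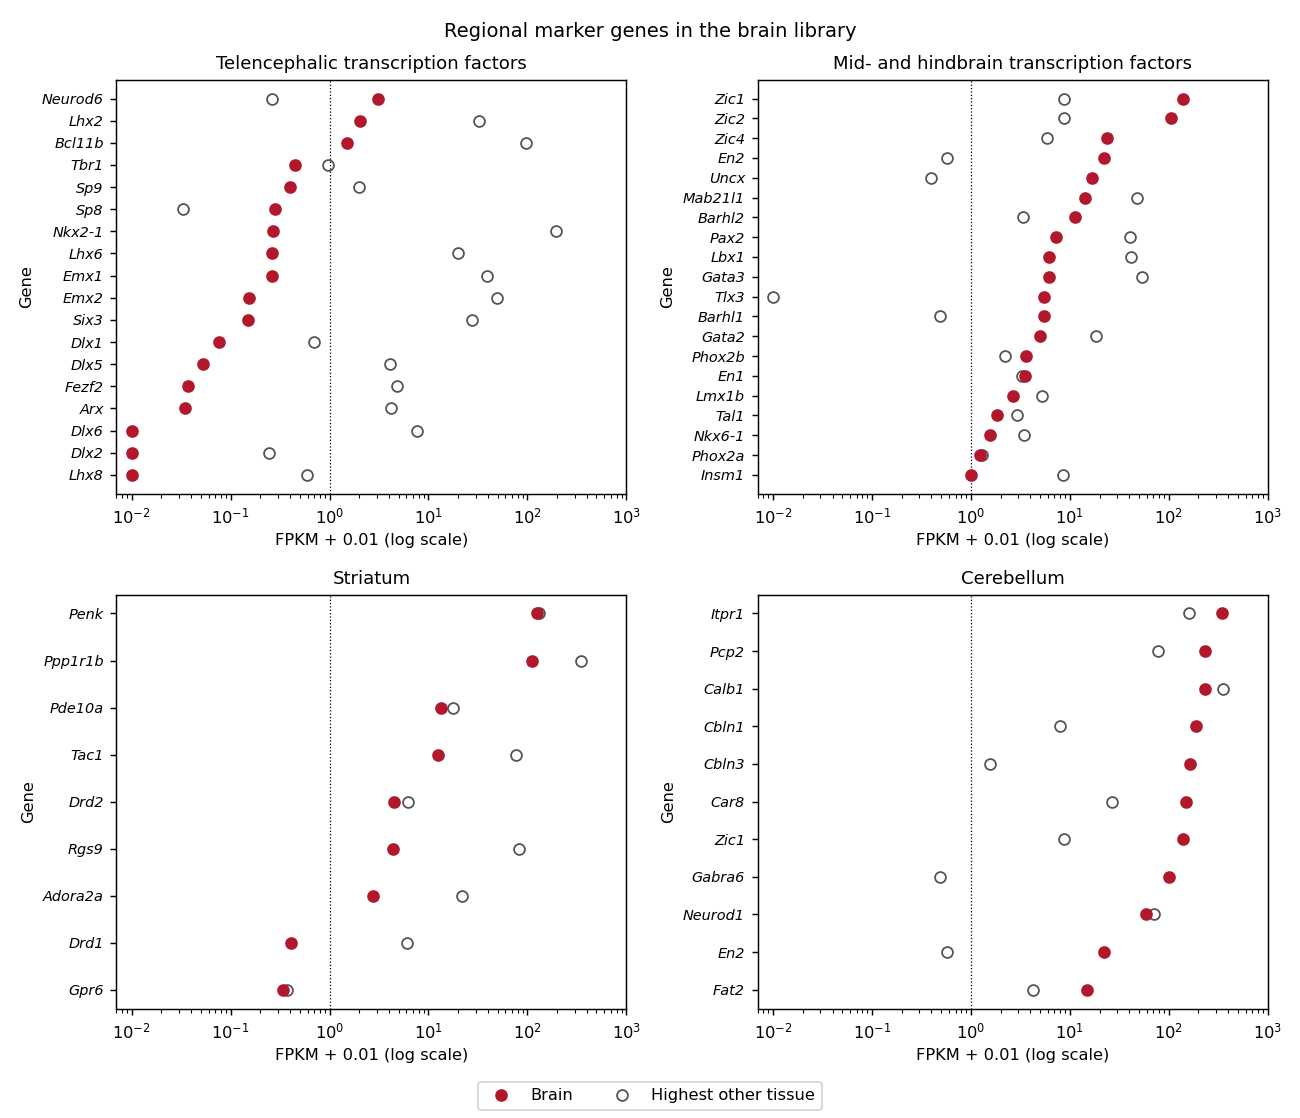
FPKM plus 0.01 (log axis) in brain (filled) and in the highest of the 12 other tissues (open) for telencephalic factors, mid- and hindbrain factors, striatal genes and cerebellar genes, with 1 library per tissue and a dotted line at 1 FPKM. Telencephalic factors lie left of the line in brain except Neurod6, Lhx2 and Bcl11b, while the 11 cerebellar genes drawn lie at 15.1 FPKM or more.

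Other markers of the forebrain were mixed. Of 12 genes listed for cortex and hippocampus, 3 were enriched: Neurod6, Neurod2 (29.3 FPKM against 4.09 FPKM in eye, and known also from cerebellar granule cells) and Lamp5 (116 FPKM against 22.8 FPKM in eye). Of 10 striatal genes 8 reached 1 FPKM in brain and 1 was enriched, with a median of 8.46 FPKM and a median log2 ratio of -1.06. They summed to 287 FPKM in brain, against 9.72 FPKM in skeletal muscle to 434 FPKM in colon. Under that median of 8.46 FPKM lay the dopamine receptor Drd1, abundant in striatum, at 0.401 FPKM in brain against 6.09 FPKM in eye. Adora2a, an adenosine receptor of striatum, lay under it too, at 2.77 FPKM against 22.0 FPKM in thymus. Of 11 hypothalamic genes 5 reached 1 FPKM in brain, 3 were highest in brain and 1 was enriched. Oxt and Hcrt had 0 reads, Avp 0.511 FPKM, Pmch 0.315 FPKM, Agrp 0.342 FPKM and Ghrh 1 read. Genes of the list that are also used in other brain regions or organs were higher, with Cartpt at 10.5 FPKM in brain against 46.9 FPKM in eye, Gal at 9.52 FPKM against 4.67 FPKM in colon and Hdc at 3.76 FPKM against 22.9 FPKM in stomach. Crh, which neurons of the brainstem also make, had 11.2 FPKM in brain against 0.409 FPKM in eye, and Trh had 6.01 FPKM against 1.45 FPKM in testis. All 6 genes listed for thalamus reached 1 FPKM in brain, with a median of 13.7 FPKM and a median log2 ratio of -3.18. Of them 1 was enriched, Slc17a6, while Tcf7l2 had 2.37 FPKM in brain against 32.8 FPKM in colon. The label names brain as a whole and gives no dissection, and which regions entered the tube was not tested beyond these values.

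Hox genes, whose paralog groups are expressed in order along the hindbrain and spinal cord, were present up to group 8. Groups 2 to 8 each held genes at 1 FPKM or more, and 17 of 40 Hox rows did so in all. The sums were 18.8 FPKM for group 3, 29.3 FPKM for group 5 and 12.1 FPKM for group 8, while groups 9 to 13 together gave 10 reads. Hoxa5 had 12.8 FPKM in brain against 12 FPKM in aorta, and Hoxb5 had 12.2 FPKM against 10.1 FPKM in WAT. None of the Hox genes was enriched, and of the 17 Hoxa5 and Hoxb5 were highest in brain. Of all genes at 1 FPKM or more in brain 4.36% were enriched. Of those reaching 1 FPKM somewhere 11.9% were highest in brain. Neither count sets the Hox genes apart. Strandedness is not stated and neighbouring Hox transcripts overlap, so single genes are uncertain.

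**Figure D3:**
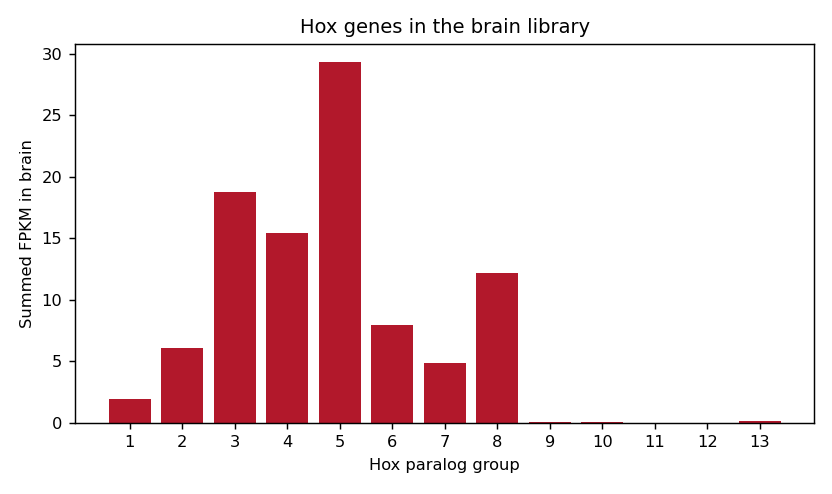
Summed FPKM in the brain library of the Hox genes of each paralog group, 1 to 13. Bars are highest for group 5 (29.3 FPKM) and group 3 (18.8 FPKM), and groups 9 to 13 are near 0.

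Markers of tissues that lie next to the brain were checked as a whole. Of 8 pituitary genes, 5 reached 1 FPKM in brain and 2 were enriched, with a list sum of 69.0 FPKM in brain against 0.0949 FPKM in liver to 43.6 FPKM in testis. Gh, growth hormone, had 53.6 FPKM in brain from 783 reads, against 0 in aorta, a median of 0 and 0.488 FPKM in thymus, a 110-fold ratio (53.0 to 274). Spleen, one of the 6 further tissues, held 2.58 FPKM of Gh, against which the ratio was 20.7 (14.8 to 29.8). Prl, prolactin, had 94 reads in brain and 0 in the 12 other tissues, at least 20.6-fold higher when each of those libraries is set to a floor of 3 reads. Fshb had 0 reads in brain and Pou1f1 had 6. The part of these transcripts in other results was not tested. The 9 retina genes summed to 8.98 FPKM in brain against 13847 FPKM in eye, and rhodopsin had 10 reads in brain. Skeletal muscle genes summed to 7.42 FPKM in brain against 91897 FPKM in skeletal muscle. Of 5 olfactory epithelium genes 2 were highest in brain, and they summed to 47.2 FPKM in brain against 0.899 FPKM in skeletal muscle to 19.3 FPKM in aorta. That sum lay in Gnal, a G protein subunit also found in brain neurons (29.1 FPKM), and Adcy3, an adenylyl cyclase (16.5 FPKM), while Omp, the marker of mature olfactory neurons, had 0.358 FPKM. Of 4 pineal genes Aanat reached 1 FPKM in brain, at 1.74 FPKM, and Crx and Asmt had 0 reads. The 5 peripheral nerve genes summed to 68.2 FPKM in brain against 5.93 FPKM in liver to 299.5 FPKM in colon, of which Pmp22, widely expressed, gave 61.9 FPKM in brain, and Pmp2 had 0 reads. The 8 meningeal and fibroblast genes summed to 70.9 FPKM in brain, near the lowest of the other tissues (67.7 FPKM in testis), and 7 blood genes summed to 275 FPKM against 42.4 FPKM in testis to 2633 FPKM in WAT.

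Oligodendrocyte genes stood out most among the cell classes. Of 14 genes, 12 were enriched, 13 had their highest value in brain, and the median log2 ratio was 4.31. They summed to 9377 FPKM in brain, against 35.5 FPKM in aorta to 879 FPKM in eye. Mbp alone took 0.793% of the assigned brain reads. Mobp, a basic protein of myelin, had 1677 FPKM in brain against 0 in kidney, a median of 0.436 and 87.9 FPKM in eye. Olig2, the factor that specifies the lineage, had 20.9 FPKM in brain against 0.451 FPKM in eye, 46.3-fold (29.5 to 77.2). Opalin had 26.9 FPKM against 0.751 FPKM in eye. Sox10 was at 3.61-fold over eye, and Mal, also an epithelial protein, was higher in stomach (414 FPKM) than in brain (225 FPKM). Of 6 genes of oligodendrocyte precursors 1, Neu4, was enriched, at 3.29 FPKM against 0.135 FPKM in eye, and Pdgfra had 12.4 FPKM in brain against 22.6 FPKM in heart.

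Pan-neuronal genes followed, with 11 of 16 enriched, 14 highest in brain and a median log2 ratio of 2.77. Rbfox3, the antigen of the NeuN antibody, had 189 FPKM in brain against 8.08 FPKM in eye (23.4-fold, 20.5 to 26.9). Stmn2, a regulator of microtubules in axons, had 288 FPKM against 16.5 FPKM in eye and 31.1 FPKM in lung, one of the 6 further tissues. Nefh and Nefm, subunits of neurofilaments, had 157 and 363 FPKM in brain against 10.9 and 27.7 FPKM in eye. Syt1, the calcium sensor of release, was not set apart from eye, at 121 FPKM in brain and 132 FPKM in eye, and Thy1 was higher in thymus (1781 FPKM) than in brain (780 FPKM). Among 9 genes of excitatory neurons 3 were enriched, Slc17a6, Neurod2 and Neurod6. Slc17a7, the vesicular glutamate transporter of cortex and granule cells, had 116 FPKM in brain against 324 FPKM in eye. Among 11 genes of inhibitory neurons 2 were enriched: Gad2, the GABA-making enzyme of terminals, and Slc32a1, the vesicular GABA transporter, at 91.9 FPKM against 20.3 FPKM in eye. Pvalb, which Purkinje cells, interneurons and fast muscle fibres all make, had 461 FPKM in brain against 9574 FPKM in skeletal muscle.

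Of 14 astrocyte genes 5 were enriched and 9 were highest in brain, with a median log2 ratio of 0.87. Aldoc, a glycolytic aldolase, had 1638 FPKM in brain against 231 FPKM in eye. S100b had 385 FPKM against 42.5 FPKM in eye, and the connexin Gjb6 had 54.3 FPKM against 11 FPKM in eye. Several astrocyte genes are shared with organs outside the brain: Aqp4, the water channel, had 57.2 FPKM in brain against 130 FPKM in colon, and Aldh1l1, a folate enzyme, had 35.5 FPKM against 811 FPKM in liver. None of 12 microglial genes and none of 11 brain endothelial genes was enriched. The share was 4.36% over all genes at 1 FPKM or more in brain, so a lack of calls in lists this short does not set these genes apart. P2ry12, a receptor of resting microglia, had 8.81 FPKM in brain against 4.44 FPKM in thymus, and Cx3cr1 had 8.29 FPKM against 4.60 FPKM in parathyroid. Slco1c1, a thyroid hormone carrier of the blood-brain barrier, came nearest among endothelial genes, at 24.2 FPKM against 6.49 FPKM in eye. Pecam1, found on all endothelium, had 10.9 FPKM in brain against 162 FPKM in aorta. Choroid plexus genes were present, with Ttr, the carrier of thyroxine, at 1885 FPKM in brain against 4635 FPKM in liver. None of the 10 listed was enriched, which at the same share of 4.36% does not set them apart either.

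**Figure D4:**
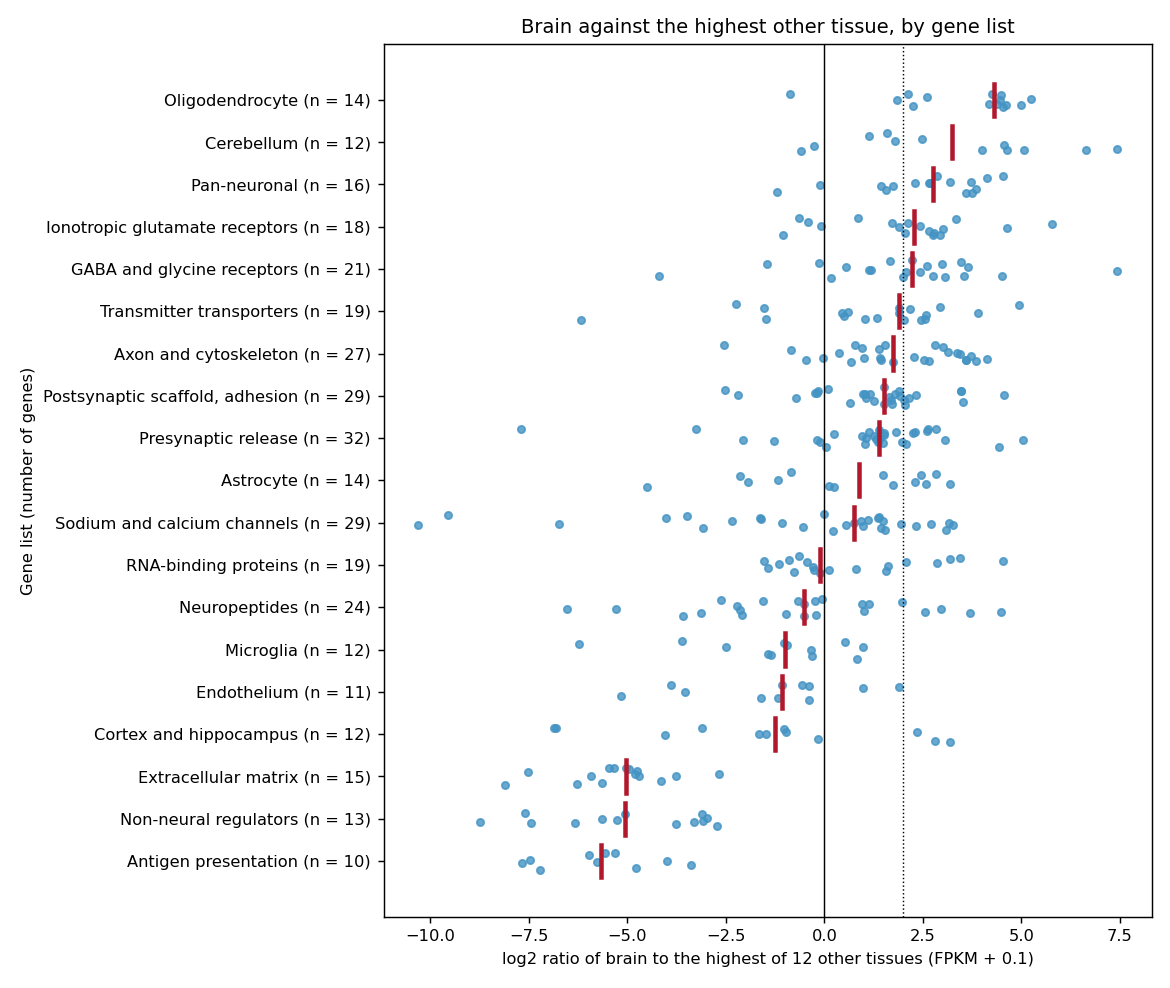
Log2 ratio of brain to the highest of 12 other tissues, with 0.1 FPKM added, for each gene (points) of 19 gene lists, with the median as a red bar, a line at 0 and a dotted line at the 4-fold rule. Medians run from 4.31 for oligodendrocyte genes to -5.67 for antigen presentation, where the median over all genes reaching 1 FPKM somewhere was -2.51.

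Receptors for fast transmitters were among the lists with the most enriched genes. Of 18 ionotropic glutamate receptor genes 11 were enriched and 14 were highest in brain, with a median log2 ratio of 2.28. Grin1, the subunit every NMDA receptor needs, had 134 FPKM in brain against 17.4 FPKM in eye, and Gria1 had 85.5 FPKM against 8.43 FPKM in eye. The NMDA subunits Grin2a and Grin2b had 7.00 and 7.21 FPKM in brain, below Grin2c at 57.6 FPKM and Grin2d at 12.3 FPKM. Of 21 GABA and glycine receptor genes 12 were enriched, with a median of 2.22. Gabrb2 had 35.1 FPKM in brain against 3.09 FPKM in eye, and Gabra5 had 13.4 FPKM against 0.496 FPKM in testis. Gabra3 went the other way, with 36.0 FPKM in brain against 98.3 FPKM in aorta. Of 32 genes of transmitter release 9 were enriched, 26 had their highest value in brain, and eye was the highest other tissue for 27. Syt2, the fast calcium sensor of hindbrain and cerebellar synapses, had 209 FPKM in brain against 6.21 FPKM in eye (33.6-fold, 29.9 to 37.9), and Cplx1, which clamps release, had 773 FPKM against 35.8 FPKM in eye. Cplx3, a complexin of retinal ribbon synapses, had 0.487 FPKM in brain against 122 FPKM in eye. Rims2 was alike in both, at 42.9 FPKM in brain and 41.4 FPKM in eye, a ratio of 1.04 (0.969 to 1.11).

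Of 29 genes of postsynaptic scaffolds and synaptic adhesion 8 were enriched and 23 were highest in brain. Cacng2 or stargazin, which carries AMPA receptors to granule-cell synapses, had 29.4 FPKM in brain against 2.46 FPKM in eye, and Lrrtm3, a synaptic adhesion protein, had 21.6 FPKM against 1.87 FPKM in eye. Dlg4, the scaffold PSD-95, was below eye, at 184 FPKM in brain and 219 FPKM in eye. Of 29 sodium and calcium channel genes 5 were enriched. Scn1a had 48.5 FPKM in brain against 4.93 FPKM in eye, and Cacna1a, the P/Q-type calcium channel of Purkinje cells, had 115 FPKM against 22.8 FPKM in parathyroid. The channels of skeletal muscle and sensory neurons were low in brain: Scn4a had 1 read in brain against 147 FPKM in skeletal muscle, and Scn10a had 0 reads. Of 19 transmitter transport genes 8 were enriched. Among 24 neuropeptide genes 4 were enriched, Crh, Adcyap1, Nxph1 and Vgf, while Npy had 8.44 FPKM in brain against 785 FPKM in WAT. Of 27 genes of axon and cytoskeleton 13 were enriched, with Kif5a, a motor of axonal transport, at 471 FPKM against 58.7 FPKM in eye and Tubb4a, a tubulin of oligodendrocytes and neurons, at 476 FPKM against 39.5 FPKM in eye.

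The matrix around neurons was led by genes of the perineuronal net. Hapln4, a link protein of brainstem and cerebellar nets, had 139 FPKM in brain against 3.27 FPKM in liver (42.6-fold, 33.8 to 54.4), and Bcan, the proteoglycan brevican, had 253 FPKM against 6.58 FPKM in eye. Hapln2, a link protein of the nodes of Ranvier, had 97.6 FPKM against 7.68 FPKM in testis. Acan, the proteoglycan aggrecan, had 2.15 FPKM in brain against 5.89 FPKM in aorta. The list of 10 was drawn up after values had been seen, and 3 were enriched. Of 15 genes of the general extracellular matrix none was enriched and none was highest in brain, with a median log2 ratio of -5.02. Over all genes reaching 1 FPKM somewhere, 2.56% were enriched and 11.9% were highest in brain. Col3a1 had 5.12 FPKM in brain against 966 FPKM in aorta.

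Pairs of related genes were set side by side, 30 in all, with the first gene of each chosen as one known from brain, so that the counts follow in part from the choice and are a description. The first gene was the higher of the pair in brain in 26 pairs. By the median of the 12 other tissues the second gene was the higher in 26 pairs, and in 22 of those the first was the higher in brain. In the other 4 pairs, Vamp2 with Vamp3, Ckb with Ckm, Pgam1 with Pgam2 and Ank2 with Ank1, the first gene was the higher by that median too. The share of the first gene was highest in brain in 26 of all pairs, and in 24 of the 26. Snap25 made up 98.8% of its pair with Snap23 in brain, against a median of 1.53% and a highest share of 85.9% in eye. Among motors of axonal transport, Kif5a made up 69.5% of its pair with Kif5b in brain, against a median of 2.24% and at most 44.2% in eye. Brain therefore lay above all 12 other tissues for both pairs. In glycolysis, Eno2 gave 49.3% beside Eno1 in brain, against a median of 0.815%, and Aldoc gave 53.0% beside Aldoa, against a median of 0.713%. Eno1 and Aldoa were themselves not low in brain, at 787 and 1453 FPKM against medians of 455 and 854 FPKM. Among splicing factors, Ptbp2 gave 65.3% beside Ptbp1 in brain, against a median of 15%. Among intermediate filaments, Ina gave 61.4% beside Vim in brain, and at most 3.76% elsewhere, in eye. In 4 pairs another tissue had the higher share: Camk2a beside Camk2d (39.2% in brain, 90.8% in skeletal muscle), Slc2a3 beside Slc2a1 (45.0% in brain, 99.5% in testis), Ank2 beside Ank1 (75.1% in brain, 98.9% in testis) and Ckb beside Ckm. Where relatives are close in sequence, as with the tubulins, reads may be split between them in counting, and such shares are uncertain.

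**Figure D5:**
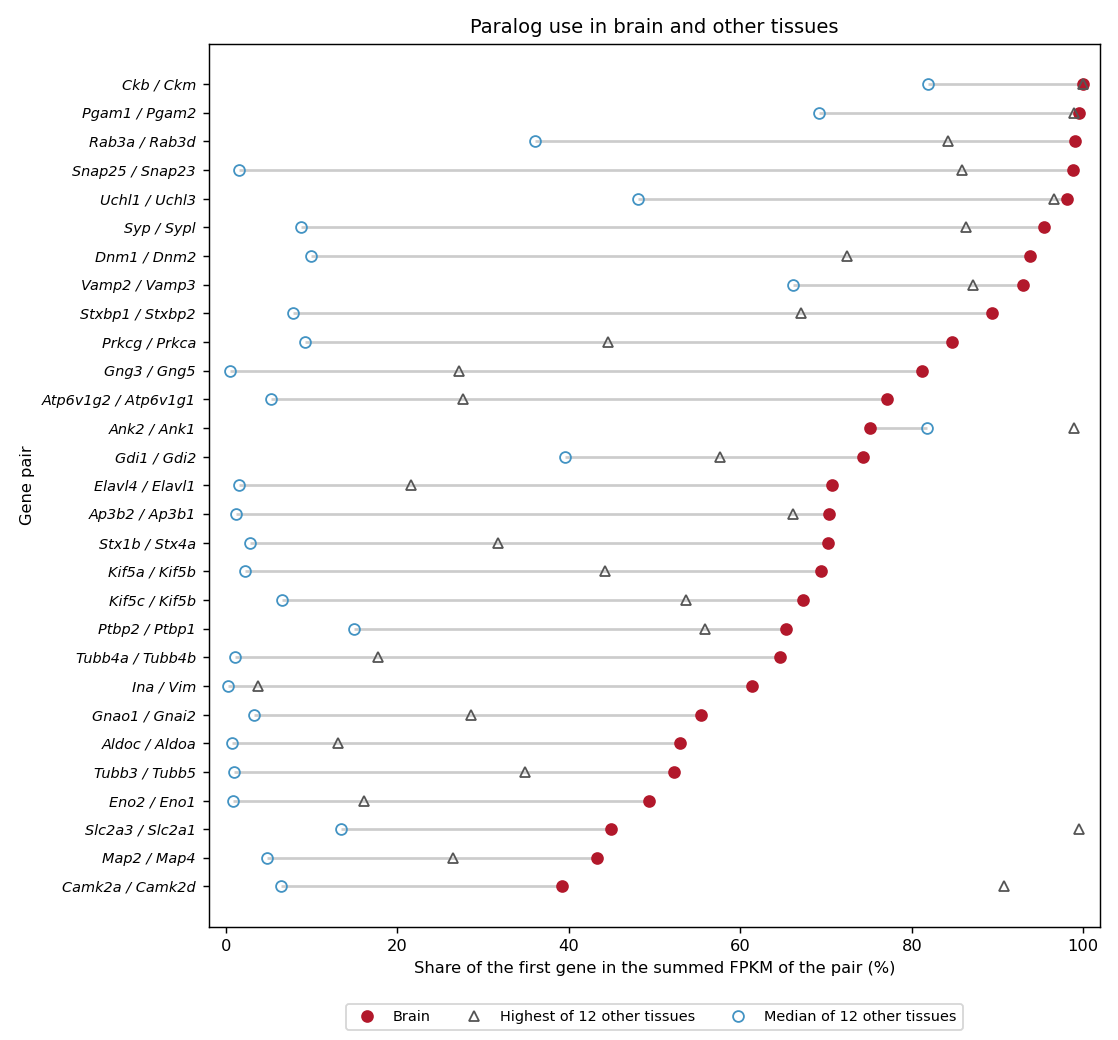
Share of the first gene in the summed FPKM of 29 gene pairs, in brain (filled), as the median of 12 other tissues (blue open circles) and in the highest of them (triangles), with 1 library per tissue. Brain has the highest share in 25 pairs drawn, and the exceptions are the pairs of Camk2a, Slc2a3, Ank2 and Ckb.

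Transcription factor genes were a small part of the enriched set. By the transcription factor family deposited with the gene rows, 24 were enriched. They are 4.83% of the protein-coding part of the set, against 7.21% of the protein-coding genes that reached 1 FPKM in brain. That naming of families is incomplete, since Npas3, a listed factor that was enriched, is not among the 24. Tlx3, a homeobox gene of dorsal hindbrain and spinal cord neurons, had 143 reads in brain and 0 in the 12 other tissues, at least 31.3-fold higher by the floor of 3 reads per library. Uncx, a homeobox gene, had 16.9 FPKM in brain against 0.385 FPKM in kidney (44.0-fold, 25.0 to 85.7). Etv1, an ETS factor that maturing granule cells use, had 83.8 FPKM against 15.9 FPKM in aorta. Of 19 RNA-binding proteins of neurons 5 were enriched, 3 of them of the Elavl family. Among long noncoding RNA genes, Meg3, an imprinted gene, had 1038 FPKM in brain against 0.35 in kidney, a median of 19.1 and 229 FPKM in eye, and Rian of the same imprinted cluster had 305 FPKM against 55.3 FPKM in eye. Rian lost the call with the 6 further tissues added, at 80.1 FPKM in skin. Miat had 56.9 FPKM against 8.41 FPKM in eye. Uchl1os overlaps the end of Uchl1 on the other strand (chr5:66676091-66676498), and without strand their reads cannot be told apart where they overlap.

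Genes that brain had least of were few. Of 9365 genes at 1 FPKM or more in all 12 other tissues, 29 (0.31%) were at least 4-fold lower in brain than in the lowest of them, and 386 (4.12%) were lowest in brain, a position that brain held for 2.8% of the genes reaching 1 FPKM somewhere. Ces1d, a carboxylesterase of lipid metabolism, had 0.281 FPKM in brain from 4 reads, against 20.9 FPKM in colon, the lowest other tissue, a median of 148 and 905 FPKM in WAT. Car3, a carbonic anhydrase of fat and muscle, had 0.548 FPKM in brain against 20.2 FPKM in kidney, a median of 120 and 5440 FPKM in WAT. Fabp4, the fatty acid binding protein of adipocytes and capillaries, had 0.115 FPKM against 5.90 FPKM in liver at the lowest and 2102 FPKM in WAT. Brain lay under all 12 other tissues for these 3. In spleen, one of the 6 further tissues, Ces1d had 1.33 FPKM and Car3 had 0.479 FPKM, below brain, so that both lost the call with the 6 added, while Fabp4 kept it. With the 6 added, 19 of the 29 kept the call. The complement genes C3 (2.23 FPKM in brain, at least 20.8 FPKM in the 12) and C1s1 (1.28 FPKM in brain, at least 9.96 FPKM in the 12), and the lipid genes Cd36 and Lpl, met the same rule, of which Lpl lost the call with intestine (4.52 FPKM). Of 10 antigen presentation genes none was enriched, where 4.36% of all genes at 1 FPKM or more in brain were. In that list 4 were lowest in brain and 1, H2-Ab1, was called lower, at 5.49 FPKM in brain against 22.7 FPKM in testis and 834 FPKM in colon. None of 13 regulators known to be low in neurons was highest in brain, where 11.9% of genes reaching 1 FPKM somewhere were. In a list this short that lack does not set them apart. Of the 13, 4 were lowest in brain, a position held for 2.8% of the same genes. Rest, the repressor of RE1 genes, had 1.29 FPKM in brain against a median of 4.10 and 10.9 FPKM in thymus, and Ptbp1 had 36.1 FPKM in brain against a median of 126 and 312 FPKM in thymus. Esrp1, an epithelial splicing factor, had 4 reads in brain.

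Some genes were shared with 1 other tissue, both being at least 4-fold above the remaining 11. Eye shared 237 such genes with brain, testis 76 and thymus 14, and no other tissue shared more than WAT, also with 14. The eye genes of highest brain level included Syp, a synaptic vesicle protein (825 FPKM in brain, 404 FPKM in eye), Eno2, Sncb and Plekhb1. With testis, Chn2, a regulator of Rac, had 310 FPKM in brain and 327 FPKM in testis, and Trim37, a ubiquitin ligase, had 129 FPKM in brain and 330 FPKM in testis. With thymus, Tubb2b had 90.8 FPKM in brain and 93.0 FPKM in thymus, and Vamp1, a vesicle SNARE of hindbrain and spinal cord, had 377 FPKM in brain and 159 FPKM in thymus. Which cells of testis or thymus held these transcripts was not tested.

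The 6 tissues that the rule had not used left most of the set in place. With bone, brown adipose tissue, intestine, spleen, lung and skin added on the same FPKM scale, 616 of the 681 genes (90.5%, and 2.32% of all genes tested) were still 4-fold above every other tissue. Lung held the highest of the 6 levels for 18 of the 65 genes lost, bone and spleen for 13 each, skin for 10, brown adipose tissue for 7 and intestine for 4. Cnp, a myelin enzyme, had 472 FPKM in brain against 128 FPKM in spleen, and Th, the first enzyme of dopamine synthesis, had 16 FPKM against 4.79 FPKM in skin. All enriched genes of the cerebellar list passed with the 6 tissues added, Car8 only narrowly, at 4.11-fold over lung with a counting interval (3.92 to 4.31) that spans 4-fold.

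Enriched protein-coding genes had a median genomic span of 31.6 kb, against 25.2 kb for the protein-coding genes that reached 1 FPKM in brain. It was second to those of aorta at 31.8 kb, and the other 11 tissues had medians of 7.53 to 22.1 kb for their own enriched genes. A span over 100 kb was found for 28.4% of them, against 15.4% of the protein-coding genes that reached 1 FPKM in brain and 26.9% of those enriched in aorta. On the X chromosome 35 of 443 protein-coding genes that reached 1 FPKM in brain were enriched (7.90%), while the autosomes ran from 2.01% on chromosome 18 to 5.77% on chromosome 15. Long intergenic noncoding RNA genes made up 7.64% of the enriched genes and 2.56% of those that reached 1 FPKM in brain. No test was made of these shares, since genes are not replicates.

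The limits of the calls fell between genes of nearly equal value. Just inside 1 FPKM in brain were Cd86, Wisp1 and Zfp488, and just outside were Nr4a3, Akr1c21 and Cd93, the last at 0.998 FPKM. Just inside 4-fold, among genes at 10 FPKM or more in brain, were Klk6 (52.3 FPKM in brain, 13 FPKM in eye), Tmem196 and Pcdh10, and just outside were Cntn6 (17.0 FPKM in brain, 4.18 FPKM in testis), Nell1 and Cdr2l, all with counting intervals that span 4-fold.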

How the data were processed

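The authors deposited FPKM for 13 tissues in 1 table and raw read counts for 6 further tissues, per the file headers. RNA was extracted with Trizol and treated with DNase, per the labels' protocols. None of aligner, annotation, library kit or strandedness was given in the sources used here, and DESeq2 is named without version or role in the submitters' processing notes. Of the gene IDs, 99.9% were found in GENCODE M21 (GRCm38), with identical coordinates for 98.3%. Gene coordinates are printed as deposited.

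Whole reads were recovered from the deposited FPKM with gene lengths equal to the mean annotated transcript length within 1 base (97.1% of 38072 genes with reads) or else a shared denominator over the tissues (1106 genes). They summed to at least 99.9966% of each library total. FPKM of the 6 further tissues was recomputed with the same lengths. A gene symbol that the table holds as a date (27 genes) was restored from its ID.

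A gene was brain-enriched at 1 FPKM or more in brain and 4-fold over the highest other tissue, and brain-depleted at 4-fold under the lowest of 12 tissues at 1 FPKM or more, with 0.1 FPKM added throughout. With 1 library per tissue no p-values were computed. Intervals are exact binomial (Clopper-Pearson, 95%) and cover counting error only. On simulated reads of 26586 genes the rule called all 50 genes raised 8-fold in brain, all 50 raised 16-fold, 0 of 50 raised 2-fold and 0 of 26386 unchanged, and it called 47 of 50 lowered 16-fold. The simulation added counting noise only.

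The members and 41 lists were chosen with earlier results of these data known, and 8 further lists were added after values were seen. Genes were named from the lists, the pairs, the 15 largest ratios and 15 highest levels among enriched protein-coding genes, the leading noncoding, depleted and shared genes, and those beside each limit. Fbll1 and the Hox genes outside the lists were chosen after their values were seen. Alternatives changed the added value, minimum, fold, scaling, kidney value and tissues. Python 3.11.15, numpy 2.4.6, pandas 2.3.3, scipy 1.17.1 and matplotlib 3.10.9 were used. Some members of the lists and pairs are counted but not reported here by name.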

Additional observations from a re-analysis of the deposited data

How the results depend on the processing

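The count of 681 brain-enriched genes was 649 to 680 under both other scalings and with the kidney mean, 707 with 0.01 FPKM added and 787 without a minimum. The genes called changed more than the count: 615 of the 675 called with size factors, and 636 of the 649 with upper quartile scaling, were among the 681. The count was 452 with 1 FPKM added, 440 at a minimum of 10 FPKM, 1429 at 2-fold and 212 at 10-fold, and leaving out 1 tissue gave 690 to 1135, the highest without eye. Without kidney and eye together, an alternative chosen after the data were seen, it was 1171. The count of 29 brain-depleted genes was 9 with 1 FPKM added, 6 at a minimum of 10 FPKM, 80 at 2-fold, 8 at 10-fold, 57 with size factors, 46 with upper quartile scaling, 19 with 6 tissues added, and 29 to 49 with 1 tissue left out, the highest without skeletal muscle and without testis. The causes were not tested. Size factors shifted the median log2 ratio of all genes by -0.34 and upper quartile scaling by -0.25. List medians that changed sign under some alternative were those of excitatory neurons, inhibitory neurons, oligodendrocyte precursors, olfactory epithelium, midbrain dopamine neurons, olfactory bulb, neuropeptides, RNA-binding proteins, mid- and hindbrain factors and the perineuronal matrix. The medians of the telencephalic factors (-6.14 to -2.42) and of the cerebellar list (2.83 to 6.36) kept their sign under all alternatives run. No paired analysis was possible because each tissue had 1 library. Genes at a few reads, such as Emx1, are limited by depth.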

Other observations

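Among the most abundant enriched genes, Aplp1, a membrane protein related to the amyloid precursor, had 915 FPKM in brain against 0.488 in skeletal muscle, a median of 9.73 and 115 FPKM in eye. Ndrg4 had 962 FPKM in brain and 180 FPKM in heart, and Mt3, the metallothionein of the nervous system, had 699 FPKM in brain against 44.1 FPKM in eye (15.8-fold, 14.2 to 17.7). Arhgap36 and Ankrd34b had ratios of 103 and 55.6 from low levels, at 14.6 and 24.5 FPKM in brain against 0.143 FPKM in heart and 0.441 FPKM in eye. Of 5 genes listed for cholinergic neurons, 3 reached 1 FPKM in brain and were highest there, and 1 was enriched. They summed to 32.0 FPKM in brain against 37.4 FPKM in eye. Lhx8 and Isl1 of that list were higher in another tissue, with log2 ratios of -2.77 and -4.76. Slc5a7, the choline transporter, had 10.6 FPKM in brain against 1.71 FPKM in eye, and was enriched, while Chat, the enzyme of acetylcholine synthesis, had 10.8 FPKM against 4.80 FPKM in eye. Of 94 potassium channel and channel-related genes with Kcn symbols, 67 reached 1 FPKM in brain and 12 were enriched (12.8% of the 94). Of 371 solute carriers with Slc symbols, 269 reached it and 16 were enriched (4.31% of the 371). The share was 2.56% of genes reaching 1 FPKM in any tissue and 4.36% of those reaching it in brain. These 2 shares leave out genes below 1 FPKM and the family percentages do not, so they are not on the same base.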
